A study of Drosophila melanogaster with 4 samples.

Results

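The genes described here are the 6 copies of Hsp70 in the fly genome, Hsp70Aa, Hsp70Ab, Hsp70Ba, Hsp70Bb, Hsp70Bbb and Hsp70Bc. They were chosen by gene symbol, as 6 of the 13926 genes of the count table, and no threshold on their values was used. All 6 had enough counts to be tested, among 9609 tested genes. RNA was prepared from pooled heads of D50 (day 50 of adult age) males in 4 libraries, 2 from NelfA*/+ flies and 2 from their +/+ control siblings. NelfA*/+ flies carry the P-element transposon insertion KG09483 in a single copy of Nelf-A, and both genotypes come from the same repeated backcross to w1118, so that they are offspring of the same crosses. The mutation is present in every cell of the fly, a head holds many cell types, and each library is a pool of heads, so that fewer cells of a type and less RNA per cell cannot be told apart in these counts.

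Hsp70 is an ATP-driven chaperone that binds exposed hydrophobic stretches of unfolded proteins and helps them to refold. Its genes are nearly silent in unstressed flies and are among the most strongly induced genes after heat shock. Before induction, RNA polymerase II has already started transcription at their promoters and waits a short distance downstream, held there by the negative elongation factor NELF and by DSIF (Spt4 and Spt5), at a promoter that GAGA factor (Trl) keeps open. Heat-shock factor (Hsf) and the kinase P-TEFb (Cdk9 and CycT) then release the polymerase. The comparison of NelfA*/+ heads with control siblings therefore asks how the copies behave in old heads with a reduced subunit of the pausing complex. No stress treatment is described for these flies, and whether the pools were free of stress was not tested.

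The copies lie in a pair of clusters on chromosome arm 3R (coordinates of the BDGP6 assembly), and each is annotated as a single exon. At 87A, Hsp70Aa (FBgn0013275, chr3R:11954163-11956544, reverse strand) and Hsp70Ab (FBgn0013276, chr3R:11958535-11960909, forward strand) point away from each other across 1990 bases. The 87C cluster starts 504543 bases further on with Hsp70Ba (FBgn0013277, chr3R:12465453-12467776, reverse strand). After a gap of 34733 bases follow Hsp70Bbb (FBgn0051354, chr3R:12502510-12504856), Hsp70Bb (FBgn0013278, chr3R:12505793-12508139) and Hsp70Bc (FBgn0013279, chr3R:12509076-12511461), all on the forward strand. The annotated lengths run from 2324 bases (Hsp70Ba) to 2386 bases (Hsp70Bc). The copies are near-identical paralogs, and HTSeq-count leaves out reads that align to more than 1 place. Each count below is thus made only from reads that could be placed on that copy, the level of each copy and of their sum is understated, and reads could have been split between copies. Nelf-A lies on the same arm, 8.71 Mb beyond Hsp70Bc, so that an effect of the insertion and one of sequence linked to it cannot be told apart.

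The libraries held from 42985746 to 45172099 counts on genes. Reads left out because they aligned to several places made up between 6.03% and 6.31% of the counts on genes plus HTSeq-count's summary lines in NelfA*/+ libraries and between 6.65% and 6.84% in control libraries. Nelf-A itself, the check of the labels, had 2398 and 2294 counts in NelfA*/+ heads, against 3588 and 3505 counts in control siblings (log2 fold change -0.54, SE 0.07, adjusted p = 0.0411 in edgeR's quasi-likelihood test). That call is lost in 4 of the alternatives tried. Photoreceptor, neuronal, glial, muscle and fat body markers were abundant in all 4 libraries as summed lists. The exceptions on the neuronal and glial lists were elav, with 8 and 6 counts in NelfA*/+ heads and 0 counts in both control libraries, and moody, at 0 in all 4, while nSyb, brp and Syt1 were high in every library. Whether reads of elav and moody were left out in counting was not tested. The summed level of 8 gut markers was 30263 and 4011 normalized counts in NelfA*/+ libraries and 472 and 469 normalized counts in control libraries, and 1 of the 8 markers, Jon25Bi, was at 0 in all libraries but NelfA*/+ replicate 1. Most of the control sums came from Mal-A1 (452 and 447 normalized counts). In edgeR's test 1 of the 8 markers, Jon65Aiii, rose (adjusted p = 0.0077), where 0.645% of all tested genes were called higher. DESeq2's Wald test called Jon65Aiii, Jon65Aiv, alphaTry, Jon99Ci and betaTry higher (adjusted p between 2.9e-48 and 0.0499), but not Mal-A1 (0.0773). It called 4.18% of its genes higher. Jon25Bi and thetaTry had too few counts to be tested in edgeR. Replicates are separate pools of heads; nothing in the labels ties a library of 1 genotype to a library of the other.

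Hsp70 RNA was higher in NelfA*/+ heads than in control siblings at every copy, by between 2.37 and 2.99 times in the means, but no copy passed the test across all genes. In the single values, 1 control library was far below both NelfA*/+ libraries. Compared as ratios, the other was closer to both NelfA*/+ libraries than to its own replicate. The 6 copies together had 3610 and 5181 counts in NelfA*/+ heads, against 679 and 2886 counts in control siblings. Scaled for library size and composition (normalized counts), the sum was 3593 and 5417 in NelfA*/+ heads and 681 and 2771 in control siblings, or 4505 ± 1290 and 1726 ± 1478 (SD, n = 2 each). The ratio of the means was 2.61. NelfA*/+ libraries lay above both control libraries, but replicate 1 of NelfA*/+ was only 1.30 times above replicate 2 of the control siblings.

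**Figure D1:**
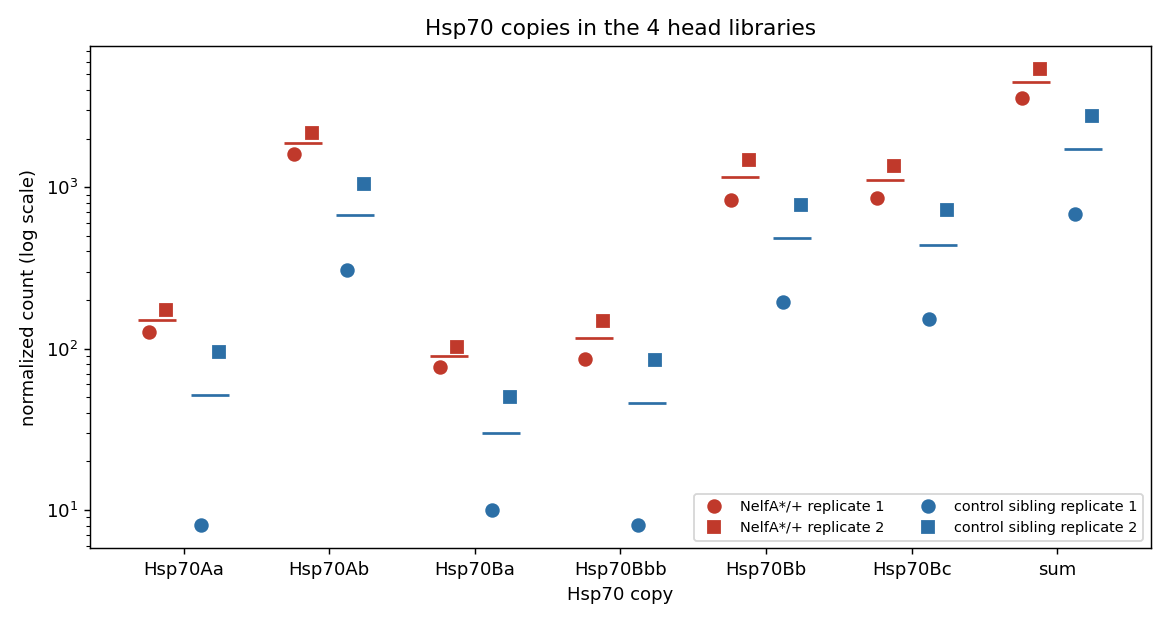
Normalized counts of the 6 Hsp70 copies and of their sum (y axis, log scale) in the NelfA*/+ libraries (red, left of each pair) and the control sibling libraries (blue, right of each pair). Circles are replicate 1, squares replicate 2 and lines the mean of 2 libraries. In each copy the lowest point is replicate 1 of the control siblings, from 8.02 normalized counts in Hsp70Aa and Hsp70Bbb to 307 in Hsp70Ab.

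Of the 87A pair, Hsp70Ab was the copy with the most reads. It had 1611 and 2165 normalized counts in NelfA*/+ heads, against 307 and 1045 in control siblings. Its log2 fold change was 1.48 (SE 0.57, 95% interval 0.03 to 2.94), with an unadjusted p of 0.0474 and an adjusted p of 0.241 in edgeR's test. Hsp70Ab is thus the only copy whose own interval leaves out 0, and it does not hold once all genes are taken into account. Hsp70Aa, transcribed from the opposite strand, was counted far less. It had 127 and 175 normalized counts in NelfA*/+ heads, against 8.02 and 95.1 in control siblings, and its log2 fold change was 1.54 (SE 0.96, 95% interval -0.92 to 4.01, adjusted p = 0.445 in edgeR's test). The value of 8.02 stands for 8 reads, so that the fold against that library rests on few molecules.

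In the 87C cluster, Hsp70Bb and Hsp70Bc were the abundant copies. Hsp70Bb had 832 and 1469 normalized counts in NelfA*/+ heads, against 196 and 774 in control siblings (log2 fold change 1.24, SE 0.66, adjusted p = 0.371 in edgeR's test). Hsp70Bc had 860 and 1357 normalized counts in NelfA*/+ heads, against 152 and 723 in control siblings (log2 fold change 1.34, SE 0.70, adjusted p = 0.369). In both, the genotypes did not overlap, and the distance from the higher control library to the lower NelfA*/+ library was small beside the distance between the control libraries. Hsp70Bbb had 85.6 and 148 normalized counts in NelfA*/+ heads, against 8.02 and 84.5 in control siblings (log2 fold change 1.33, SE 0.95, adjusted p = 0.509). Its genotypes are separated only by the scaling: the raw counts, 86 and 142 in NelfA*/+ heads against 8 and 88 in control siblings, overlap, and so do values scaled by library size alone (84.8 in NelfA*/+ replicate 1, against 87.2 in control replicate 2). Hsp70Ba, which stands apart from the others in the cluster and on the reverse strand, had 76.6 and 102 normalized counts in NelfA*/+ heads, against 10.03 and 49.9 in control siblings (log2 fold change 1.57, SE 0.70, 95% interval -0.24 to 3.38, adjusted p = 0.301).

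The test thus called 0 of 6 copies higher in NelfA*/+ heads, where 0.645% of all tested genes were called higher and 1.23% lower at an adjusted p below 0.05. At an unadjusted p below 0.05, edgeR's test named 1 copy (Hsp70Ab), where 20.3% of all genes passed, and DESeq2's Wald test also named 1 copy (Hsp70Ba, unadjusted p = 0.0369, adjusted p = 0.232), where 16% of all genes passed. DESeq2 called 0 copies after adjustment, with 4.18% of its genes called higher. The genotypes did not overlap in 6 of 6 copies, with NelfA*/+ on top, as was also the case in 26.1% of all tested genes. The 6 copies share libraries, sequence and inducing factors and are not 6 separate pieces of evidence. The 95% intervals of the copies reach from -1.13 (Hsp70Bbb) to 4.01 (Hsp70Aa) on the log2 scale, so that at this replicate number neither an unchanged level nor a rise of several fold was distinguishable for 5 of the 6 copies.

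The widest spread was between the control libraries. Replicate 2 of the control siblings held 4.07 times the Hsp70 sum of replicate 1, whereas replicate 2 of NelfA*/+ held 1.51 times that of replicate 1. Among single copies, control replicate 2 over replicate 1 was 11.8 in Hsp70Aa and 10.5 in Hsp70Bbb, and between 3.40 (Hsp70Ab) and 4.98 (Hsp70Ba) in the other 4. Few genes differed as much between these libraries. The log2 ratio of the control replicates had a median absolute size of 0.13 over 9567 tested genes, and 35 of them, 4 of these Hsp70 copies, had a ratio at least as high as that of the Hsp70 sum (log2 2.02), which is 0.366%. Those 35 are higher in control replicate 2. In either direction, 60 of the 9567 genes were at least as far apart. The within-genotype SD of the log2 sum was 1.05. The log2 ratio between the genotypes was 1.38, but it is taken from means of unlogged counts and so is not on the same measure as the SD. An exact permutation test of the sum, with 2 libraries against 2, could not give a two-sided p below 0.33 and was not run.

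The size of the difference therefore depends on which control library is used. Against control replicate 1 alone, the mean NelfA*/+ level of the sum was 6.62 times as high, and against control replicate 2 alone it was 1.63 times as high. Without control replicate 1, the log2 fold changes of the copies in edgeR's fit lay between 0.47 and 0.85 (adjusted p between 0.300 and 0.651). Without control replicate 2 they lay between 2.56 and 4.21 (adjusted p between 0.115 and 0.190). In all 76 values from alternative fits and left-out libraries, the log2 fold change of the copy was above 0, and in 0 of them did it pass the threshold. The direction was thus the same whichever of the settings was used, and the fold was not.

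The low counts of control replicate 1 touched the copies unequally. Hsp70Ab made up 44.8% and 40.0% of the Hsp70 counts in NelfA*/+ heads and 45.1% and 37.7% in control siblings. Hsp70Bb made up 23.2% and 27.1% in NelfA*/+ heads and 28.7% and 27.9% in control siblings, and Hsp70Bc 23.9% and 25.1% in NelfA*/+ heads and 22.4% and 26.1% in control siblings. The order of the 3 abundant copies therefore began with Hsp70Ab in every library, with Hsp70Bb and Hsp70Bc changing places. Hsp70Aa took 3.55% and 3.22% in NelfA*/+ heads and 1.18% (exact 95% Clopper-Pearson interval 0.51% to 2.31%) and 3.43% (2.80% to 4.16%) in control siblings. Hsp70Aa, Hsp70Ba and Hsp70Bbb together, a grouping made after their values were seen, took 8.06% and 7.86% in NelfA*/+ heads and 3.83% (2.52% to 5.56%) and 8.28% (7.30% to 9.35%) in control siblings. Hsp70Aa and Hsp70Bbb, with 8 reads each in control replicate 1, carry that low value, since Hsp70Ba alone took 1.47% (0.71% to 2.69%) there and 1.80% (1.35% to 2.36%) in control replicate 2. These intervals cover counting error only.

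**Figure D2:**
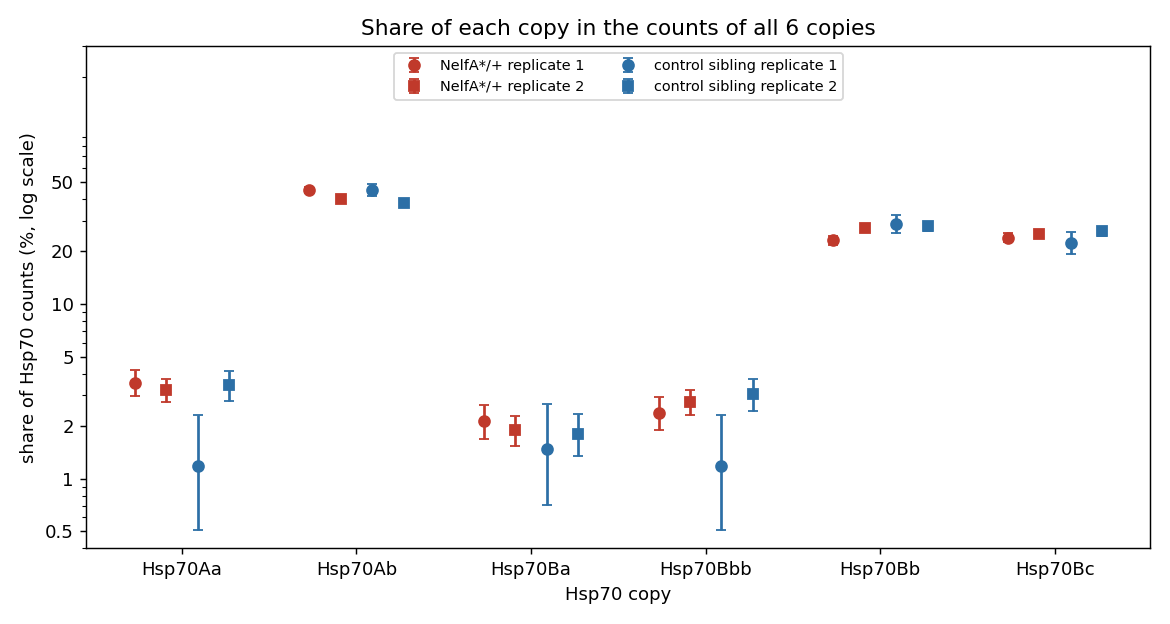
Share of each copy in the summed counts of the 6 Hsp70 copies (y axis, percent on a log scale), with exact 95% Clopper-Pearson intervals as bars, in NelfA*/+ libraries (red, left) and control sibling libraries (blue, right). The 3 abundant copies lie between 22.4% and 45.1% in every library, and the shares of Hsp70Aa and Hsp70Bbb in control sibling replicate 1 are both 1.18%.

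Set per length, the copies fell into an abundant and a scarce group in each cluster. Hsp70Ab stood at 15.2 and 20.5 CPM (counts scaled to library size) per kb in NelfA*/+ heads, against 2.90 and 9.87 in control siblings. Its level per kb was 12.7 and 12.4 times that of its divergent partner Hsp70Aa in NelfA*/+ heads, against 38.4 and 11.0 times in control siblings. Hsp70Bb and its neighbour Hsp70Bbb, which are of the same annotated length, had a ratio of 9.72 and 9.89 in NelfA*/+ heads and 24.4 and 9.16 in control siblings. How much of each ratio comes from the number of bases that are unique to a copy was not tested, since no genome sequence was used here. All 6 copies together reached 34.0 and 51.3 CPM per kb in NelfA*/+ heads, against 6.46 and 26.3 CPM per kb in control siblings. The constitutive cytosolic chaperone Hsc70-4, by contrast, stood at 1330 and 1333 CPM per kb in NelfA*/+ heads, against 961 and 1082 CPM per kb in control siblings.

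The other heat-inducible genes give a measure that does not depend on near-identical copies. Of 12 such genes listed, 11 are in the table and 9 were tested. The non-coding heat-shock RNA Hsromega was not analysed here, Hsp22 is at 0 in all 4 libraries, and Hsp67Bb, listed as CG4456, had between 0 and 2 counts. The annotation of Hsp22 lies inside that of Hsp67Bb on the same strand, and HTSeq-count leaves out reads that overlap more than 1 gene, so that these values do not show the level of either. All 9 had a log2 fold change above 0, with a median of 0.89 against 0.01 over all genes tested, and 0 of 9 rose in edgeR's test, where 7 had an unadjusted p below 0.05. Over all tested genes 0.645% rose in edgeR's test and 20.3% had an unadjusted p below 0.05. DESeq2 called 7 of 9 higher, where it called 4.18% of all its genes higher. In 7 of 9 the genotypes did not overlap, with NelfA*/+ on top, which held for 26.1% of all tested genes. This list was chosen with earlier results of these data known, so that its direction is a description.

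Hsp68, an inducible member of the Hsp70 family outside the 2 clusters, had 3032 and 3624 normalized counts in NelfA*/+ heads, against 802 and 1362 in control siblings. Its log2 fold change was 1.62 (SE 0.27, adjusted p = 0.0629 in edgeR's test and 6.7e-08 in DESeq2's). Hsp83, the fly Hsp90, had 134742 and 168062 normalized counts in NelfA*/+ heads, against 37995 and 64245 in control siblings (log2 fold change 1.57, SE 0.29, adjusted p = 0.0751 in edgeR's test and 0.0022 in DESeq2's). The fold changes of Hsp68 and Hsp83 were thus as large as those of the Hsp70 copies, with SEs of 0.27 and 0.29 against at least 0.57. Among the small heat-shock proteins, which hold unfolded proteins in a soluble state, Hsp23 had a log2 fold change of 1.18 (edgeR adjusted p = 0.117) and Hsp27 of 1.03 (adjusted p = 0.0867). Hsp26 had 2192 and 3243 normalized counts in NelfA*/+ heads, against 1043 and 2900 in control siblings, which overlap (0.46 on the log2 scale, adjusted p = 0.663). DnaJ-1, a J-domain partner of Hsp70, had a log2 fold change of 0.81 (adjusted p = 0.133), and stv, a BAG-domain nucleotide exchange factor of Hsp70, one of 0.04 (adjusted p = 0.928).

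**Figure D3:**
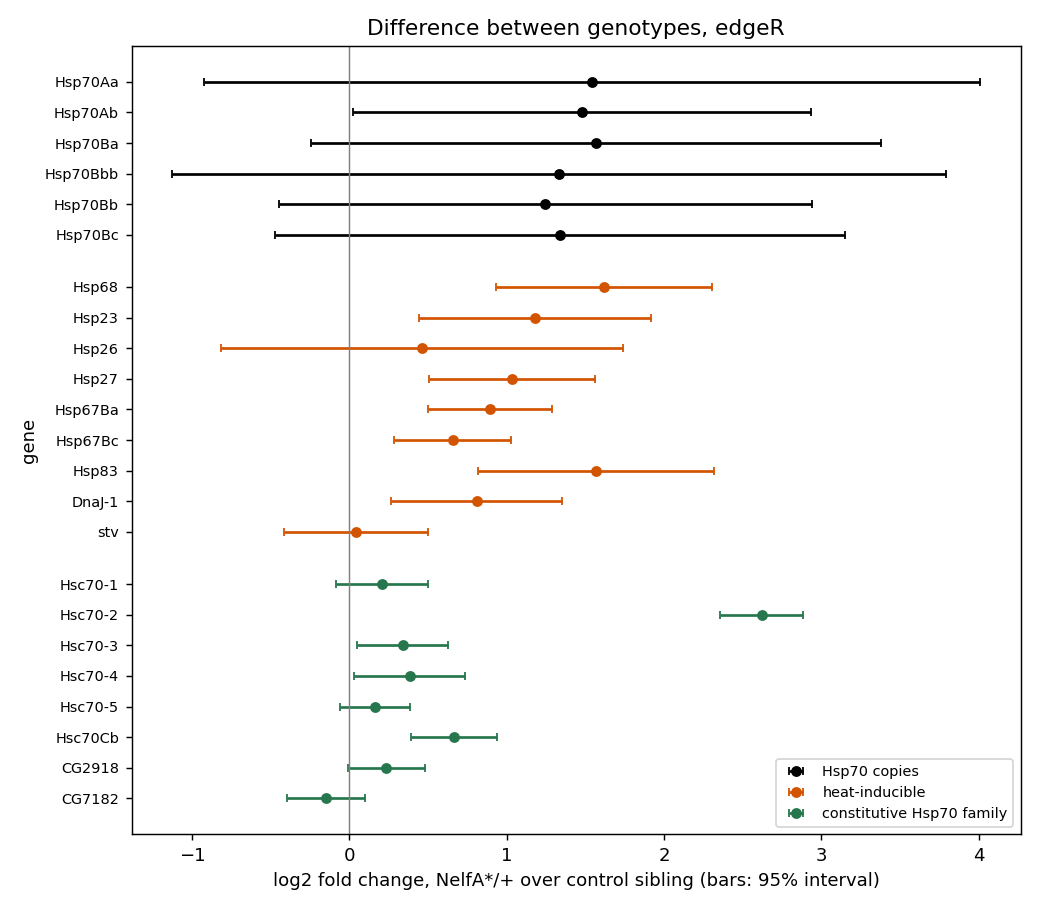
Log2 fold change, NelfA*/+ over control sibling (x axis), with 95% intervals from edgeR's quasi-likelihood fit (bars), of the 6 Hsp70 copies (black), 9 heat-inducible genes (orange) and 8 constitutive members of the Hsp70 family (green). The Hsp70 copies lie between 1.24 and 1.57 with wide intervals, Hsp68 and Hsp83 at 1.62 and 1.57 with narrower ones, and Hsc70-2 at 2.62.

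The gap between the control libraries was shared by the inducible genes. All 9 were higher in control replicate 2 than in control replicate 1, with a median log2 ratio of 0.61, whereas 4898 of the 9567 tested genes with counts in all 4 libraries were higher in replicate 2. Hsp26 showed the widest gap of the 9, at 2.78 times, and Hsp67Ba the narrowest, at 1.26 times. The gap was 1.70 times in Hsp68 and 1.69 times in Hsp83, against 4.07 times in the Hsp70 sum. Against control replicate 2 alone, the NelfA*/+ mean was 2.44 times as high for Hsp68 and 2.36 times as high for Hsp83, 1.63 times for the Hsp70 sum, 0.937 times for Hsp26 and 0.886 times for stv. Held against the higher control library, Hsp68 and Hsp83 therefore exceeded the Hsp70 copies, and the NelfA*/+ means of Hsp26 and stv lay below that library. The summed gut markers given above also differed between libraries, and their part in these results was not tested.

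**Figure D4:**
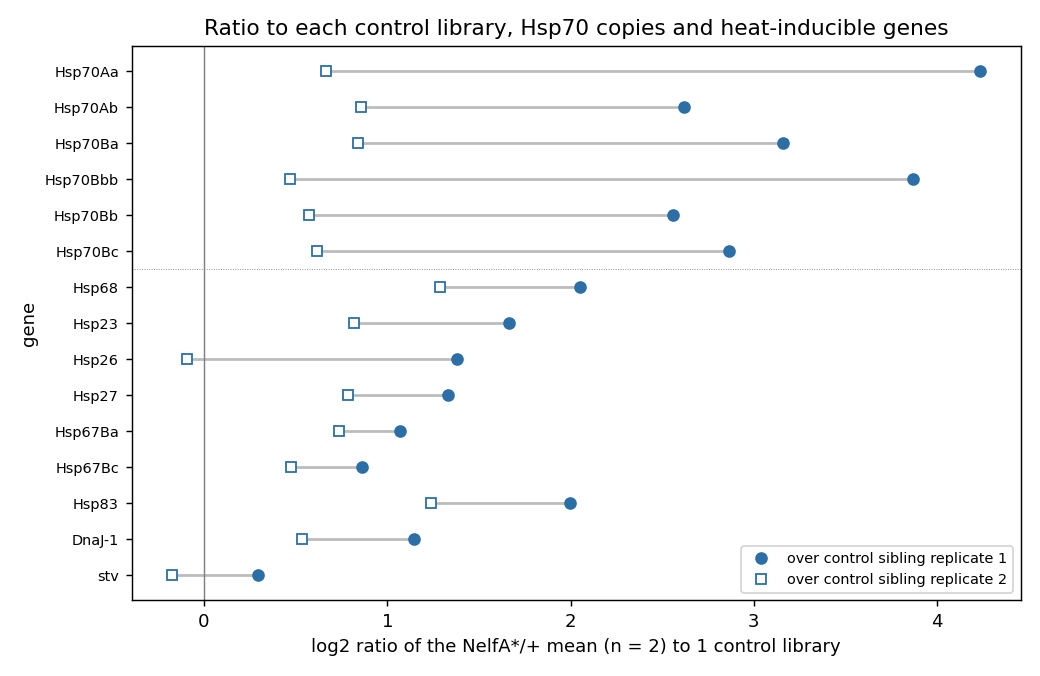
Log2 ratio of the NelfA*/+ mean (n = 2 libraries) to a single control sibling library (x axis), for the 6 Hsp70 copies and 9 heat-inducible genes. Filled circles are ratios to control replicate 1 and open squares to control replicate 2. The 6 Hsp70 copies lie between 2.56 and 4.23 against replicate 1 and between 0.47 and 0.85 against replicate 2, and the squares of Hsp26 (-0.09) and stv (-0.17) lie below 0.

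The constitutive Hsp70 family holds genes that need no stress for their expression. All 8 listed genes were tested, 7 had a log2 fold change above 0, the median was 0.29, and 1 rose in edgeR's test while DESeq2 called 4. Of all 9609 tested genes 5021 had a log2 fold change above 0, and 0.645% were called higher by edgeR and 4.18% by DESeq2. In 7 of 8 the genotypes did not overlap, with NelfA*/+ on top, against 26.1% of all tested genes. An unadjusted p below 0.05 in edgeR's test was found in 4 of 8, against 20.3% of all tested genes. Lack of overlap was thus not particular to the inducible genes. Hsc70-4 had 161066 and 161291 normalized counts in NelfA*/+ heads, against 116238 and 130943 in control siblings (log2 fold change 0.38, SE 0.14, adjusted p = 0.220 in edgeR's test and 0.0026 in DESeq2's). The gene that rose was Hsc70-2, a cytosolic Hsp70 cognate. It had 742 and 792 normalized counts in NelfA*/+ heads, against 127 and 122 in control siblings (log2 fold change 2.62, SE 0.10, adjusted p = 0.0045 in edgeR's test). Control replicate 2 was at 0.957 times control replicate 1, in contrast to the Hsp70 copies, and the call is lost without control replicate 1 (adjusted p = 0.0776) or control replicate 2 (0.0932), fits in which that genotype has 1 library.

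Hsc70-2 lies 533 kb beyond the 87C cluster on the same arm, and genes beside it also differed between the genotypes. These neighbours were named after their values were seen. CG31157, the next gene on the same strand, had 202 and 238 counts in NelfA*/+ heads, against 6 and 22 counts in control siblings (log2 fold change 4.03, SE 0.53, adjusted p = 0.042 in edgeR's test). The xanthine dehydrogenase gene ry, further off on the other side, had 1504 and 1417 counts in NelfA*/+ heads, against 3754 and 3700 counts in control siblings (-1.30 on the log2 scale, adjusted p = 0.0077). Both calls are lost without control replicate 1 (adjusted p = 0.132 for CG31157 and 0.0916 for ry) or control replicate 2 (0.0994 and 0.0932). CG11668, between ry and Hsc70-2, had a log2 fold change of -0.83 (adjusted p = 0.0724 in edgeR's test and 0.0013 in DESeq2's). CG7966, beyond CG31157, had one of 0.56 (0.0739 in edgeR's test and 0.0013 in DESeq2's). Hsc70-2 thus stood between genes with higher and genes with lower values in NelfA*/+ heads. Of 2194 tested genes placed on 3R, 2.78% were called by edgeR, against 1.60% of 6497 placed elsewhere. Whether the genotypes carry different alleles at this place or along the arm was not tested.

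None of the 4 genes next to the Hsp70 clusters passed edgeR's test. It called 0.645% of all tested genes higher and 1.23% lower, so that a call among 4 genes would be rare at those shares. On either side of 87A, CG31211 had a log2 fold change of 0.25 (edgeR adjusted p = 0.214) and CG3281, whose annotation overlaps the end of Hsp70Ab by 27 bases, one of 0.12 (adjusted p = 0.569). Beside 87C, CG5608 had a log2 fold change of -0.08 (adjusted p = 0.622). The octopamine receptor gene Octbeta3R lies on the reverse strand, with its downstream end 108 bases beyond the end of Hsp70Bc. It had 2271 and 2520 normalized counts in NelfA*/+ heads, against 1753 and 1755 in control siblings (log2 fold change 0.45, SE 0.08, adjusted p = 0.0736 in edgeR's test and 0.0021 in DESeq2's). Unlike those of the Hsp70 copies, the control values of Octbeta3R lay close together.

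Of 8 listed co-chaperones of the cytosol, 5 had a log2 fold change above 0 and 3 below, close to the share over all genes (5021 of 9609 above 0), with a median of 0.21. Called higher were 1 by edgeR, against 0.645% of all genes, and 4 by DESeq2, against 4.18%. The 1 that rose was CG1416, the fly relative of Aha1, which in other species stimulates the ATPase of Hsp90. It had 3895 and 4449 normalized counts in NelfA*/+ heads, against 2429 and 2673 in control siblings (log2 fold change 0.71, SE 0.10, adjusted p = 0.0453 in edgeR's test). The call is lost without the filter on low counts (adjusted p = 0.0696), in limma-voom (0.0525) and without control replicate 1 (0.272) or 2 (0.177).

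Of the factors that act at the Hsp70 promoter, Nelf-A alone passed edgeR's test. Of 17 listed, 16 were tested and Su(Tpl) is at 0 in all 4 libraries. In 9 the log2 fold change was above 0 and in 7 below, with a median of 0.02, and 1 fell, which was Nelf-A, while 0 rose in edgeR's test or DESeq2's. Of all 9609 tested genes 5021 were above 0, close to the share in this list. Over all tested genes edgeR called 0.645% higher and 1.23% lower, and DESeq2 called 4.18% of its genes higher. At those shares few calls would fall in a list of this length. Those without a call include Hsf, with 3405 and 3350 normalized counts in NelfA*/+ heads, against 3111 and 3391 in control siblings (log2 fold change 0.05, 95% interval -0.13 to 0.24, adjusted p = 0.727). Trl was listed at 15 and 17 counts in NelfA*/+ heads, against 31 and 17 counts in control siblings, too few for a narrow estimate (log2 fold change -0.53, SE 0.48, adjusted p = 0.602). Whether reads of Trl and Su(Tpl) were left out in counting was not tested, so that these counts may not show their RNA level.

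By profile over the 4 libraries, 3 of the 5 genes most like the Hsp70 sum were inducible chaperones. Likeness was measured as the Euclidean distance between centred log2 CPM values (pseudocount 0.5 CPM), a description over 4 points that share libraries and depth. The 5 nearest genes outside the copies were Hsp83 (distance 0.89), Hsp68 (0.91), Cyp6g2 (0.95), Hsp23 (0.98) and CG10924 (1.09), and the other heat-inducible genes were spread from place 6 (Hsp26), 13 (DnaJ-1) and 14 (Hsp27) through 22 (Hsp67Ba) and 69 (Hsp67Bc) to 597 (stv). The copies themselves were at distances between 0.10 (Hsp70Bc) and 0.77 (Hsp70Ba) of their sum. Cyp6g2, a cytochrome P450, had 419 and 1403 normalized counts in NelfA*/+ heads, against 176 and 501 in control siblings, which overlap (1.43 on the log2 scale, adjusted p = 0.355 in edgeR's test). CG10924, annotated as a phosphoenolpyruvate carboxykinase gene, had 268 and 238 normalized counts in NelfA*/+ heads, against 66.2 and 130 in control siblings (1.37 on the log2 scale, adjusted p = 0.119).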

How the data were processed

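Per the labels and the methods of the study, the authors used Trim Galore for adaptor removal, STAR 2.5 for alignment to BDGP6 and HTSeq for counting per gene; its mode and strand setting are not given in the sources used here. The deposited values are whole-number read counts for 13926 genes, without normalization. HTSeq's summary lines (not unique, between 6.03% and 6.84%; ambiguous, between 7.47% and 8.00%; no feature, between 2.91% and 3.38%) stayed out of library sizes. A further deposited table with mean counts, fold changes and p-values of the authors' DESeq2 comparison was not used.

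Counts were compared with edgeR 4.0.16 in R 4.3.3 (filterByExpr, TMM factors, quasi-likelihood F test). Adjusted p-values are Benjamini-Hochberg values for 9609 genes, called below 0.05. For normalized counts, each count was scaled by the effective library size (TMM), taken relative to the 4-library mean. Standard errors follow from the F statistic and the fold change. With 2 pools per genotype, p-values set the genotype difference against an estimated spread between pools, which draws in part on other genes. Alternatives used DESeq2 1.42.0 and limma 3.58.1 (voom), other scaling, filters and dispersions, a replicate block and each library left out. The main fit, DESeq2, limma-voom and the replicate block were tried on simulated data, and the other alternatives were not. Intervals of shares are exact (SciPy 1.17.1, 95%). Coordinates are from the Ensembl 115 annotation of BDGP6. Same-numbered libraries deviated with a correlation of -0.13 over 8399 genes with a mean count above 100, so that no pairing by number was seen over these genes as a whole. A deviation shared by fewer genes was not tested.

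The copies and gene lists were chosen with earlier results of these data known. Named genes are the 6 copies, Nelf-A, Hsp68, Hsp83, Hsp22, Hsp23, Hsp26, Hsp27, Hsc70-4, Hsf and Trl, list members past the threshold, the nearest genes beside each cluster and the 5 nearest profiles; others were named after their values were seen. Marker lists covered neurons, glia, photoreceptors, fat body, muscle, gut, male reproductive tract and haemocytes. Sequence unique to each copy was not analysed here.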

Additional observations from a re-analysis of the deposited data

How the results depend on the processing

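The log2 ratio of the Hsp70 sums, 1.38, was between 0.70 (without control replicate 1) and 2.73 (without control replicate 2) when a library was left out, and 1.39 with DESeq2's size factors or 1.34 with library size alone. No copy passed the threshold under any of 13 alternatives; the filter of at least 10 counts in every library removed Hsp70Aa and Hsp70Bbb. With the replicate block, 0 copies passed (Hsp70Ab was nearest, at 1.69 on the log2 scale with an edgeR adjusted p of 0.0538), while 297 of all genes passed in place of 180, and 4 heat-inducible genes (Hsp68, Hsp83 and Hsp23 among them) rose in place of 0. With the replicate numbers crossed between genotypes, added after the counts were seen, 797 genes and 0 copies passed. The number of heat-inducible genes that rose ran from 0 to 7 over the settings, as DESeq2 called 7. Nelf-A lost its call without the filter on low counts (adjusted p = 0.0584), with the replicate block (0.0537) and without control replicate 1 (0.259) or 2 (0.145). A fit with a genotype at 1 library assumes that it varies like the other. Depth limits Hsp70Aa, Hsp70Ba and Hsp70Bbb, which had between 8 and 10 reads in control replicate 1. The planned share of sequence unique to each copy was not run.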

Other observations

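Few genes besides the Hsp70 copies were so much higher in control replicate 2 than in control replicate 1. Genes as far apart in the other direction are not counted in this section. Of 8349 other tested genes with a mean of at least 100 normalized counts, 6 had a control ratio at least as high as that of the Hsp70 sum. The mean was taken over all 4 libraries. CG34212, CG5096, iotaTry and CG13324 reached it through NelfA*/+ libraries and had between 1 and 18 counts in control libraries. Their control ratios thus rest on few reads. CG14075 had 38 and 381 counts in control siblings. The remaining gene was Akh, the adipokinetic hormone gene of the neuroendocrine corpora cardiaca, with 752 and 3229 normalized counts in NelfA*/+ heads, against 90.3 and 722 in control siblings. As in the Hsp70 copies, its lowest library was control replicate 1 and its highest NelfA*/+ replicate 2, and it did not pass edgeR's test (2.29 on the log2 scale, SE 1.10, adjusted p = 0.330, and between 0.0049 and 0.721 over the alternatives). Just under that ratio stood sug, a sugar-responsive transcription factor gene, with 3125 and 2090 normalized counts in NelfA*/+ heads, against 743 and 2947 in control siblings, and the antifungal peptide gene Drs, with 6125 and 1770 in NelfA*/+ heads, against 3155 and 11459 in control siblings. These genes were named with their values in view, and whether the control pools differed in handling, feeding or infection was not tested.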
